A study of Mus musculus with 6 samples.

Results

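The transcription factor NF-κB and the proteins that hold it in check were followed through 10 genes in sorted tumor γδ T cells of mice with gastrointestinal stromal tumor (GIST). The genes were Rela, Rel, Relb, Nfkb1 and Nfkb2, which encode the subunits, and Nfkbia, Nfkbib, Nfkbie, Nfkbiz and Tnfaip3, which encode inhibitors. They were chosen by gene symbol, 10 of the 53153 symbols in the deposited table of read counts, and each of the 10 had 1 row. Both groups were KitV558del/+ C57BL/6J mice aged 8 to 10 weeks, which carry 1 activating allele of the receptor tyrosine kinase gene Kit and develop GIST. The imatinib group (3 libraries) drank the KIT inhibitor imatinib at 600 mg/L for 1 week, and the vehicle group (3 libraries) received vehicle for 1 week. The labels do not say whether a library is 1 mouse or a pool, so the p-values measure the spread between libraries, which may be technical.

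NF-κB is a family of dimers built from RelA, c-Rel, RelB, p50 (made from Nfkb1) and p52 (made from Nfkb2). In resting cells the classical inhibitors IκBα, IκBβ and IκBε keep dimers in the cytoplasm, and signals from antigen receptors, Toll-like receptors and the TNF receptor family activate the IκB kinases, which mark the inhibitors for destruction. Freed dimers then switch on inflammatory, survival and proliferation genes, among them Nfkbia and Tnfaip3, whose products turn the pathway off again. Nfkbiz encodes the nuclear protein IκBζ, which binds p50 and is needed for a subset of targets, and Tnfaip3 encodes the ubiquitin-editing enzyme A20. In T cells, Rel is best known for its role in activation and cytokine production.

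Since NF-κB is known to act on genes of its own pathway, the promoters of the members are shown first. RefSeq windows (GRCm38.p6) that reach from 250 bases before to 50 bases after an annotated start were found for 7 of the 10 genes, 10 windows in all, and Nfkb1, Relb and Nfkbiz had no window. The windows below belong to 3 genes whose counts differed between the groups (Nfkbia, Rel, Nfkbie) and to 2 whose counts did not pass the test (Nfkb2, Tnfaip3), with matches to the κB consensus in capitals, on either strand and written 5′ to 3′ along the gene.
Nfkbia, chr12:55492598-55492897, minus strand: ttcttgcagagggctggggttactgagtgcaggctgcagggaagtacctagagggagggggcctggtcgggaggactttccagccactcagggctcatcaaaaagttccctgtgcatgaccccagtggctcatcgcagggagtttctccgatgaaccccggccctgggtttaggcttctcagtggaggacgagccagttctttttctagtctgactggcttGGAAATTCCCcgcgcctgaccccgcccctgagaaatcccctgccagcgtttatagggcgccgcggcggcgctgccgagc
Rel, chr11:23770920-23771219, minus strand: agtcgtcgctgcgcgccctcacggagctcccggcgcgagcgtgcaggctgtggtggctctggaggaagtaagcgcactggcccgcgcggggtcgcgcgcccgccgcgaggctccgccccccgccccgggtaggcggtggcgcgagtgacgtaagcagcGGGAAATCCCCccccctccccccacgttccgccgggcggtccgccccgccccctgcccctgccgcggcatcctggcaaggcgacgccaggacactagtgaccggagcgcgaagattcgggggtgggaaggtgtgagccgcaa
Nfkbie, chr17:45555450-45555749, plus strand: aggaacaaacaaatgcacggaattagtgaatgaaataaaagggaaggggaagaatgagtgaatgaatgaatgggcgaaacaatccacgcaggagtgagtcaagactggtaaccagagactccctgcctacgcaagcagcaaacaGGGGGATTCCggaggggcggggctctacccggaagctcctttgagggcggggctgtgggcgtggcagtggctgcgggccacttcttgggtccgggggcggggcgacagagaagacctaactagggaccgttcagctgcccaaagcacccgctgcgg
Nfkb2, first of 3 starts, chr19:46304487-46304786, plus strand: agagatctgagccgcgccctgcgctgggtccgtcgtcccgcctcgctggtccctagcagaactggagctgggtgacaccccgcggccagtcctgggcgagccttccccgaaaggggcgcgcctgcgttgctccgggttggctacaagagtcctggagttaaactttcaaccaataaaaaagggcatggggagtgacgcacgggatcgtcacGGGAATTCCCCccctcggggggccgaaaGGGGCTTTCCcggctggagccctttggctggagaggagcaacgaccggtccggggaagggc
Tnfaip3, second of 2 starts, chr10:19015361-19015660, minus strand: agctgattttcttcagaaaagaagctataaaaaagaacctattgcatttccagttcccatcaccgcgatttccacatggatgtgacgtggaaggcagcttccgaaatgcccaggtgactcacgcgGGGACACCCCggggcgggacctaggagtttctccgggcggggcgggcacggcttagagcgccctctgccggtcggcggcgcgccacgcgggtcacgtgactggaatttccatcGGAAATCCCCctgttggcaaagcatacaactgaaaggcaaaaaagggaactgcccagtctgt
The κB consensus is a 10-letter motif with variable positions, searched on both strands, and 5 of the 7 members with a window held it (7 of 10 windows), against 9.55% of 27025 genes and 8.46% of 32851 windows. The member windows had 47% to 75% G and C, against a median of 52.7% over all windows, and the shares were not matched for base content. The other windows of Nfkb2, not shown, overlap and share 1 site, which the count of windows holds in both. The κB core, a stricter form with a single free position whose every match is also a match to the consensus, stood in Nfkbia (the capitals shown) and in the other windows of Nfkb2, against 0.466% of genes. Rela and Nfkbib had no match in their windows. Counted from the start, the first base of the match lay at -29 in Nfkbia and at -106 in Nfkbie. In Rel, matches on opposite strands overlapped from -92 and -91, and in the Nfkb2 window shown they began at -39, -38 and -11. The Tnfaip3 window shown held matches at -125 and -12. TATAAA, searched on both strands, was in 2 of the 7 members and 15.7% of genes. A match in letters is not a measured binding site.

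**Figure D1:**
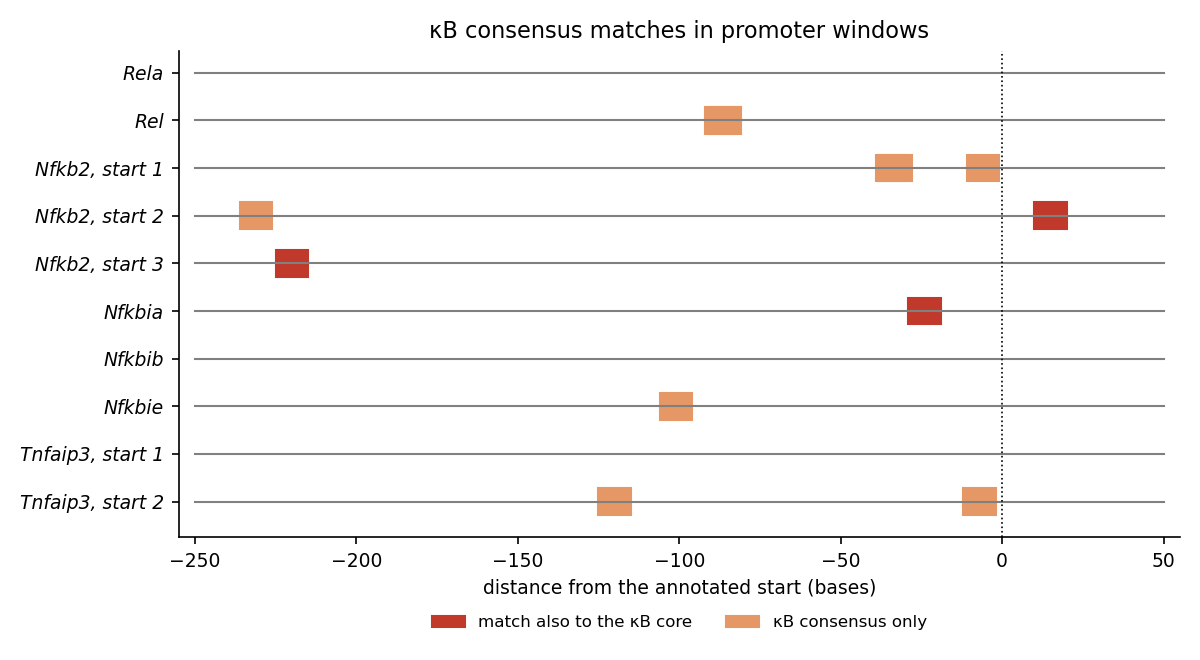
Position of κB consensus matches in the 10 promoter windows of 7 members. The x axis is the distance from the annotated start in bases, each line is 1 window, and boxes mark matches (dark where the κB core also matched). The single Nfkbia match begins 29 bases before the start, and the Rela and Nfkbib lines are bare.

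Each library held between 21333897 and 25214210 counts in named genes, and raw counts of the members ran between 647 and 5992. The methods describe sorted CD45+CD3+NK1.1−TCRγδ+ cells, whereas the series text names regulatory T cells, so the label was checked against marker genes. The γδ T-cell receptor constant gene Trdc had 850 to 1237 CPM (counts relative to library size, scaled by the trimmed mean of M values, TMM) in imatinib libraries and 373 to 673 CPM in vehicle libraries, and Foxp3 had 0 to 0.223 and 0.318 to 0.775 CPM. Markers of other cells were also present. The summed level of 11 macrophage markers was 6528 to 12220 CPM under imatinib and 10970 to 14390 CPM under vehicle, above that of the 6 γδ T-cell markers, which was 1811 to 2638 CPM and 835 to 1531 CPM. Of the macrophage markers Lyz2 and Mrc1 rose (log2 fold change 0.77 and 0.73, edgeR adjusted p = 0.0331 and 0.0256) and the other 9 did not pass, with a list median of -0.46. Of the 6 γδ T-cell markers Trdc, Trdv4 and Cd3d rose and 3 did not pass. The 6 αβ T-cell markers summed to 432 to 533 CPM, against 346 to 364 CPM, and 3 of them rose (Trac, Trbc1 and Trbc2). The other 3 were lower without passing (log2 fold change -0.27 for Cd4, -1.31 for Cd8a and -1.24 for Cd8b1, edgeR adjusted p = 0.454, 0.0571 and 0.159). The list median was 0.17. The sum of 7 dendritic cell markers was 421 to 788 CPM under imatinib, against 802 to 1107 CPM under vehicle, and most of it was Itgax (468 and 884 CPM on average, log2 fold change -0.92, edgeR adjusted p = 0.0888). The list median went the other way, at 0.29, with Cd209a higher (1.20, adjusted p = 0.0100) and Siglech lower (-1.37, adjusted p = 0.0317). B and plasma cell markers summed to 4286 to 5540 CPM, against 706 to 4499 CPM. Most of this was Jchain (4207 and 2576 CPM on average), none passed, and the list median was 0.92. Neutrophil markers summed to 115 to 360 CPM, against 89.9 to 131 CPM, and no tested gene passed (list median 2.87). On average Csf3r was the largest part (78.4 and 90.4 CPM, log2 fold change -0.21). S100a8, S100a9, Cxcr2 and Retnlg had log2 fold changes of 2.65 to 3.11 with separate groups (edgeR adjusted p = 0.0801 to 0.149). The 6 markers of GIST and interstitial cells of Cajal summed to 112 to 369 CPM, against 46.1 to 61.4 CPM, with a list median of 2.65. Kit (log2 fold change 2.70, edgeR adjusted p = 0.0173), Gja1 (3.07, 0.0128) and Etv1 (1.86, 0.0426) rose, and the other 3 did not pass. Fibroblast markers summed to 330 to 650 CPM, against 67.3 to 230 CPM, with a list median of 1.55, and none passed. None of these lists was at 0 throughout, though the mast cell list reached 0 to 4.72 CPM under imatinib and 0.0408 to 0.772 CPM under vehicle. Their part in the differences below was not tested. In bulk RNA, fewer cells of a type and less RNA per cell cannot be told apart.

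Of the 10 genes, Nfkbia rose and Rel, Nfkbie and Nfkbiz fell under imatinib (edgeR quasi-likelihood test, Benjamini-Hochberg adjusted p under 0.05 over 16621 genes), and the other 6 did not pass. The 1 gene that rose stands beside 6.15% of all tested genes that rose, and the 3 that fell beside 8.42% that fell. In either direction, 4 of 10 members were called, against 14.6% of all tested genes. The groups did not overlap in the same 4 of 10 genes, against 37.7% of all tested genes (imatinib above in 1 member and 17.5% of genes, below in 3 members and 20.2% of genes), so the share with separate groups was near the background. The median log2 fold change was -0.07 over the members and 0.01 over all tested genes.

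**Figure D2:**
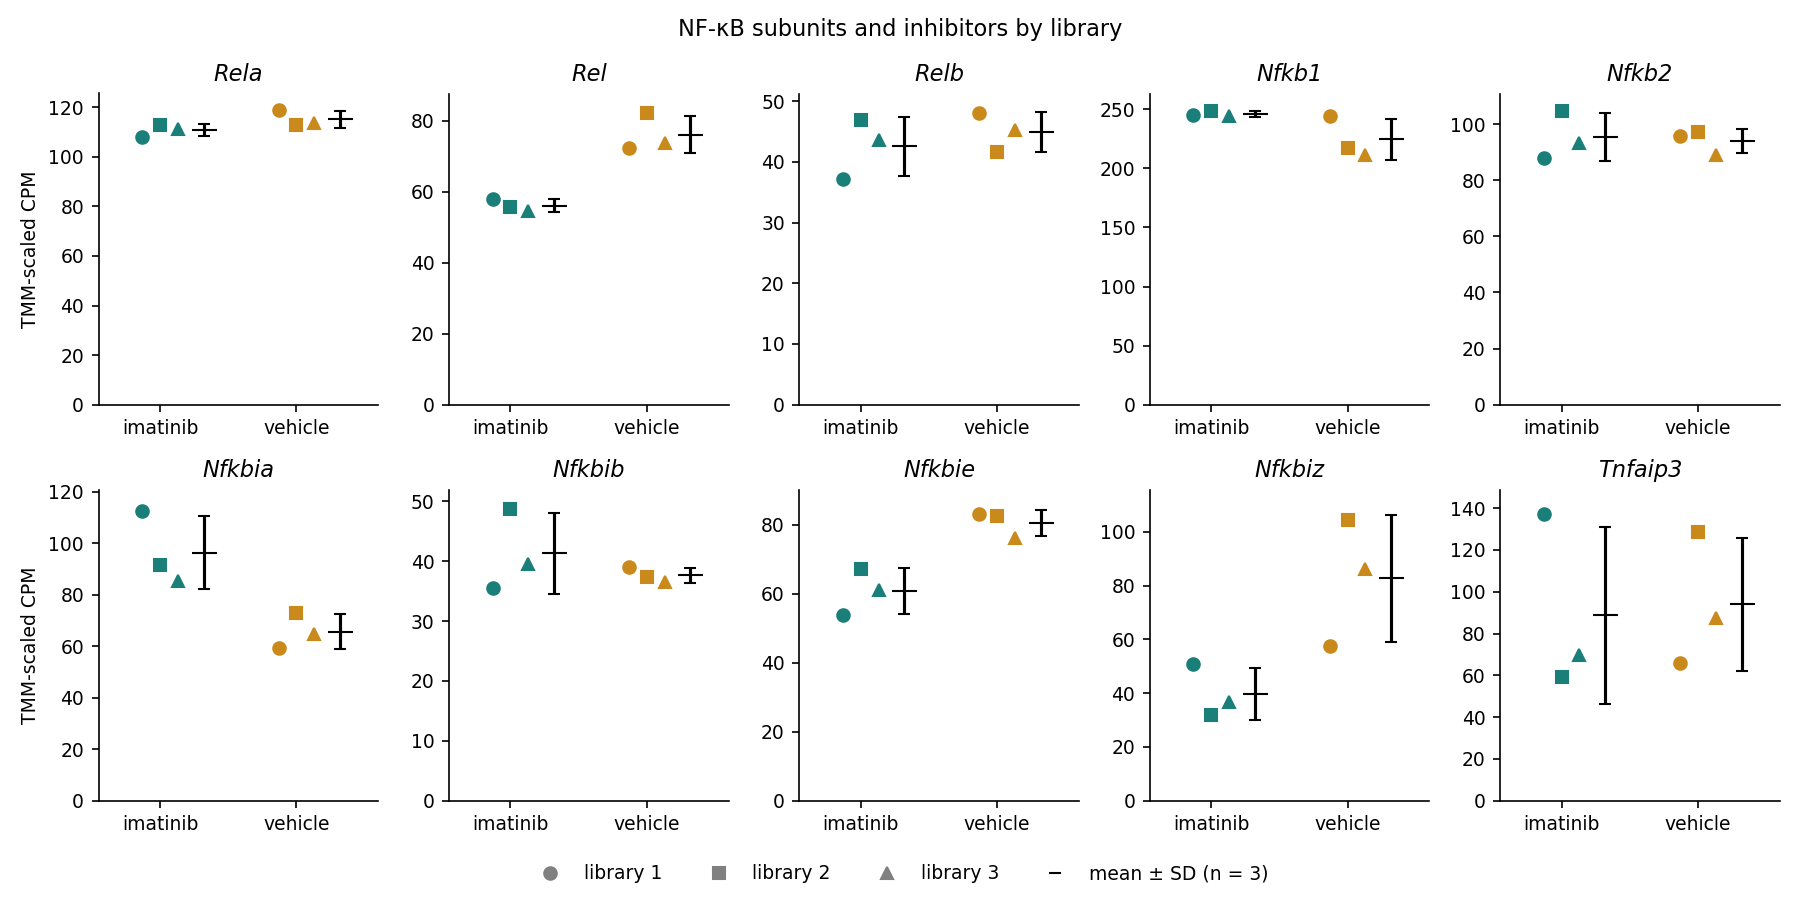
TMM-scaled CPM of the 10 genes in each library, imatinib left of vehicle, with the mean and SD of 3 libraries beside the points and each y axis starting at 0. Nfkbia is higher in each imatinib library (85.2 to 112 CPM) than in any vehicle library (59.2 to 72.9 CPM), Rel, Nfkbie and Nfkbiz are lower, and Tnfaip3 spreads widely in both groups.

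Among the subunits, the only one that changed by this test was Rel, which encodes c-Rel (chr11:23736847-23770970, GRCm38, as are all gene positions here). It had 58.0, 55.6 and 54.7 CPM in imatinib 1, 2 and 3, against 72.3, 82.1 and 73.7 CPM in vehicle 1, 2 and 3. The highest imatinib library lay below the lowest vehicle library, and the imatinib libraries were close to each other (56.1 ± 1.72 CPM, against 76.0 ± 5.27 CPM in vehicle; SD, n = 3 each). The log2 fold change was -0.44 ± 0.10 (SE, edgeR adjusted p = 0.0249). The call was lost without imatinib 3 (adjusted p = 0.0801), vehicle 1 (0.0579), vehicle 2 (0.0894) or vehicle 3 (0.0664).

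Rela, which encodes the main activating subunit of the classical pathway (chr19:5637483-5648130), varied little. It had 108, 113 and 111 CPM in the imatinib libraries and 119, 113 and 114 CPM in the vehicle libraries. The groups overlapped, with a coefficient of variation of 2.28% under imatinib and 2.94% under vehicle, and the log2 fold change was -0.06 ± 0.09 (SE, edgeR adjusted p = 0.720). Nfkb1, the p50 precursor (chr3:135584655-135691547), had 245, 249 and 244 CPM under imatinib, against 245, 218 and 212 CPM under vehicle. Vehicle 1 was as high as the imatinib libraries while vehicle 2 and 3 were lower, and the difference of 0.13 ± 0.10 (log2, SE) did not pass (edgeR adjusted p = 0.403).

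Nfkb2 and Relb, the subunit genes of the alternative pathway, showed no difference beyond their spread. Nfkb2, the p52 precursor (chr19:46304320-46312385), had 88.0, 105 and 93.3 CPM under imatinib and 95.8, 97.2 and 89.1 CPM under vehicle, with a log2 fold change of 0.02 ± 0.11 (SE, edgeR adjusted p = 0.920). Relb, whose product pairs with p52 (chr7:19606217-19629438), had 37.3, 46.9 and 43.6 CPM and 48.1, 41.6 and 45.3 CPM, with a log2 fold change of -0.08 ± 0.13 (SE, edgeR adjusted p = 0.708). In both genes imatinib 1 was the lowest library and the groups overlapped. Nfkb2 shares 299 exon bases with Psd on the opposite strand, which had 223 to 281 counts under imatinib and 209 to 264 under vehicle, and 531 bases with a non-coding RNA. The strand setting of the counting is not given in the sources used here, so reads of these stretches cannot be assigned.

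The classical inhibitors moved in different directions. Nfkbia, which encodes IκBα (chr12:55489410-55492647), had 112, 91.4 and 85.2 CPM in imatinib 1, 2 and 3, against 59.2, 72.9 and 64.8 CPM in vehicle 1, 2 and 3. Each imatinib library was above each vehicle library, with imatinib 1 the highest and vehicle 1 the lowest. The level was 1.47-fold that of vehicle (log2 fold change 0.55 ± 0.14, SE, edgeR adjusted p = 0.0310). It passed without imatinib 2 (0.0372), and not without imatinib 1 (0.0635), imatinib 3 (0.0565), vehicle 1 (0.119), vehicle 2 (0.0589) or vehicle 3 (0.0921), nor with scaling to library totals (0.0597). Scaled to the counts of the CD3 genes, which moved the median of all genes to -0.72, Nfkbia stood at -0.18 (adjusted p = 0.697), so its direction holds relative to most genes and not per CD3 count.

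Nfkbie, which encodes IκBε (chr17:45555703-45563169), went the other way. It had 54.0, 67.3 and 61.0 CPM under imatinib, against 83.0, 82.5 and 76.1 CPM under vehicle. The groups were separate, with imatinib 1 the lowest library, and the log2 fold change was -0.41 ± 0.11 (SE, edgeR adjusted p = 0.0449). This call was close to the threshold and was kept without imatinib 2 (0.0216) but lost without imatinib 1 (0.105), imatinib 3 (0.112), vehicle 1 (0.121), vehicle 2 (0.129) or vehicle 3 (0.0899). Nfkbib, which encodes IκBβ (chr7:28758251-28767512), had 35.5, 48.8 and 39.6 CPM under imatinib and 39.0, 37.4 and 36.5 CPM under vehicle. Imatinib 1 was the lowest and imatinib 2 the highest of all libraries, and the log2 fold change of 0.13 ± 0.14 (SE) did not pass (edgeR adjusted p = 0.544). Its exons overlap those of Sirt2 by 42 bases and those of Ccer2 by 314 bases on the opposite strand. Ccer2 had 0 to 1 counts per library, and Sirt2 had 1874 to 2384 under imatinib and 1866 to 2036 under vehicle. Reads of these stretches cannot be assigned either.

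Nfkbiz, which encodes the nuclear inhibitor-like protein IκBζ (chr16:55811375-55838899), fell the most of the 10. It had 50.7, 32 and 36.8 CPM in imatinib 1, 2 and 3, against 57.4, 105 and 86.1 CPM in vehicle 1, 2 and 3. The groups were separate, though imatinib 1 and vehicle 1 were close, and the level was 0.482-fold that of vehicle (log2 fold change -1.05 ± 0.25, SE, edgeR adjusted p = 0.0339). The call was kept without imatinib 1 (0.0288) or vehicle 1 (0.0265) and lost without imatinib 2 (0.0724), imatinib 3 (0.105), vehicle 2 (0.0904) or vehicle 3 (0.0913), and with no filter on low counts (0.0539). Tnfaip3, which encodes A20 (chr10:19000910-19015657), had 137, 59.3 and 69.6 CPM under imatinib and 66.0, 129 and 87.6 CPM under vehicle. Imatinib 1 and vehicle 2 were high in it, and the coefficient of variation was 47.8% and 33.9%, the widest of the 10 genes in each group. Its log2 fold change was -0.08 ± 0.40 (SE, edgeR adjusted p = 0.914), and it was -0.54 without imatinib 1 and 0.20 without vehicle 2, so its direction rests on single libraries. Ctla4, on the regulatory T-cell marker list, was also high in these libraries, with 23.9 CPM in imatinib 1 and 31.4 CPM in vehicle 2, against 4.10 to 8.76 CPM in the other imatinib libraries and 1.39 to 1.89 CPM in the other vehicle libraries. The rest of that list was mixed. Ikzf2 was highest in the same libraries (45.9 and 47.0 CPM). Il2ra was highest in imatinib 1 (188 CPM) but lowest of the vehicle libraries in vehicle 2 (114 CPM). Foxp3, at 0.181 and 0.318 CPM, was highest of its group in neither. The part of these genes in the spread of Tnfaip3 was not tested.

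**Figure D3:**
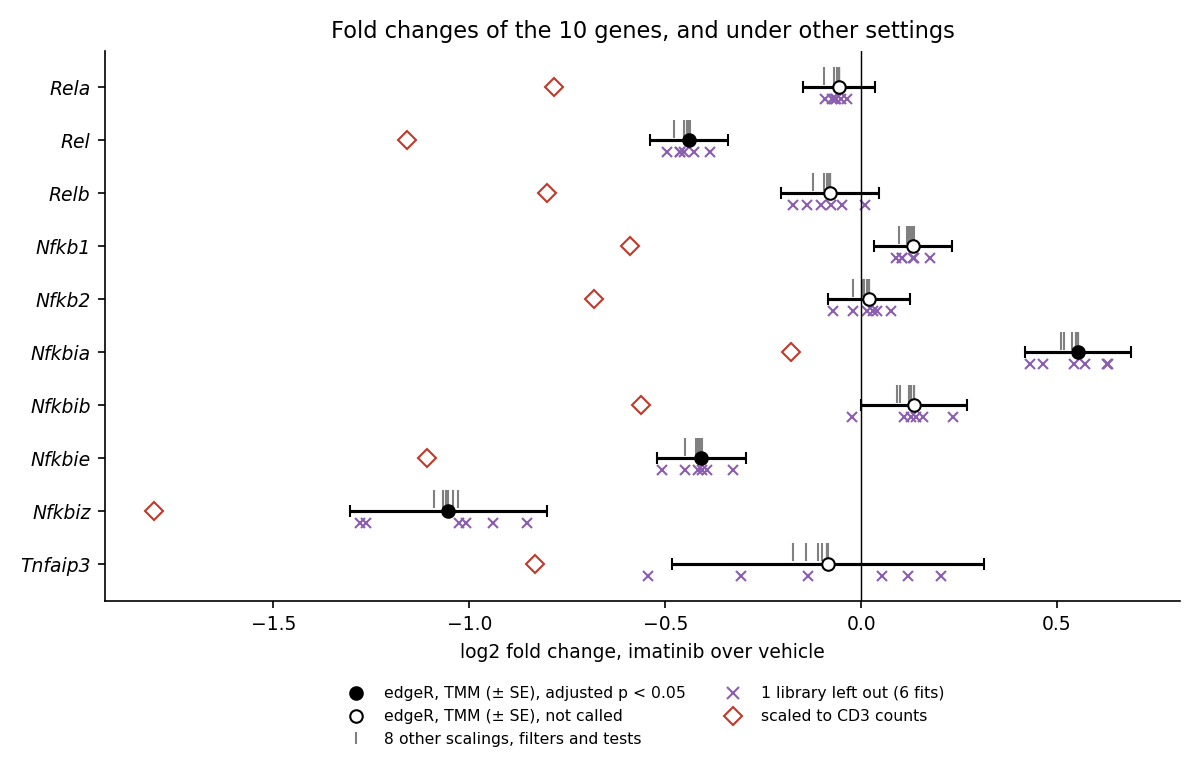
Log2 fold change of the 10 genes, imatinib over vehicle, with bars of 1 SE (filled where adjusted p is under 0.05), with 1 library left out (crosses), under 8 other scalings, filters and tests (grey ticks) and scaled to CD3 counts (diamonds). Rel, Nfkbie and Nfkbiz stay below 0 in each fit, Nfkbia is above 0 except when scaled to CD3 counts (-0.18), and Tnfaip3 runs between -0.54 and 0.20 as single libraries are left out.

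Levels of different genes were compared as CPM per kilobase of exon, with length taken over every annotated exon base of a gene. That length can exceed the transcripts present, so the order and the shares below depend on it. By CPM alone, Nfkb1 (12061 bases) was the highest of the 10, at 246 CPM under imatinib and 224.5 CPM under vehicle. Under imatinib the order was Nfkbia (59.8 ± 8.84, SD, n = 3), Rela (36.1 ± 0.822), Nfkb2 (20.8 ± 1.86), Nfkb1 (20.4 ± 0.205), Nfkbie (19.9 ± 2.19), Nfkbib (19.0 ± 3.13), Tnfaip3 (12.3 ± 5.86), Relb (10.96 ± 1.26), Nfkbiz (7.94 ± 1.94) and Rel (7.51 ± 0.230). Under vehicle it was Nfkbia (40.8 ± 4.27, SD, n = 3), Rela (37.5 ± 1.10), Nfkbie (26.5 ± 1.27), Nfkb2 (20.5 ± 0.944), Nfkb1 (18.6 ± 1.46), Nfkbib (17.3 ± 0.585), Nfkbiz (16.5 ± 4.74), Tnfaip3 (13.02 ± 4.41), Relb (11.6 ± 0.846) and Rel (10.2 ± 0.706). Neighbours in the order overlapped within 1 SD, except Nfkbia and Rela and then Rela and Nfkb2 under imatinib, and Rela and Nfkbie and then Nfkbie and Nfkb2 under vehicle. By mean CPM per kilobase, Nfkbia and Rela thus led in both groups, and Rel was last in both. Under imatinib the last place was not settled, since the lowest library of Nfkbiz (6.38) lay below the lowest of Rel (7.32).

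The make-up of the classical inhibitors differed between the groups. Nfkbia was 67.2%, 56% and 58.1% of the summed CPM per kilobase of the 3 genes in imatinib 1, 2 and 3, against 44.8%, 50.5% and 49.1% in vehicle 1, 2 and 3. Nfkbie was 17.1%, 21.8% and 21.95% under imatinib, against 33.3%, 30.3% and 30.5% under vehicle, and Nfkbib overlapped. The sum itself was 98.8 ± 6.72 CPM per kilobase under imatinib and 84.6 ± 4.37 under vehicle (SD, n = 3 each), with separate groups. The sum over the 5 subunits was 95.7 ± 3.88 and 98.4 ± 3.29, with overlap. Within it, Rel was 7.46% to 8.44% under imatinib, against 9.498% to 11.3% under vehicle, and Nfkb1 was 20.7% to 22.1%, against 18.4% to 19.9%. These shares rest on the same counts as the tests above, and on the exon lengths used.

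**Figure D4:**
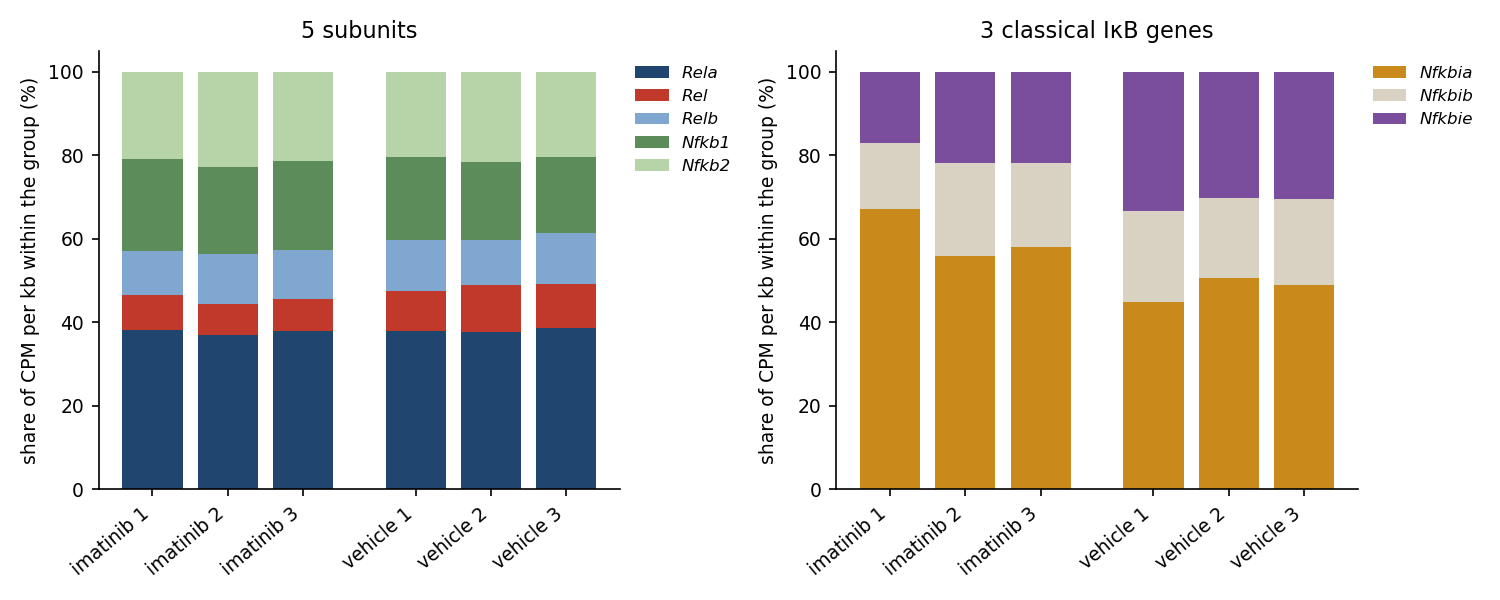
Share of each gene in the summed CPM per kilobase of the 5 subunits (left) and of the 3 classical IκB genes (right), 1 bar per library, imatinib libraries left of vehicle libraries. On the right Nfkbia fills 56% to 67.2% of the imatinib bars and 44.8% to 50.5% of the vehicle bars, while on the left Rela keeps 36.9% to 38.7% in each library.

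Ratios within a library do not depend on its scaling. The ratio of Nfkbia to Rela counts, inhibitor to its main partner, was 1.04, 0.808 and 0.767 under imatinib, against 0.497, 0.647 and 0.570 under vehicle. The groups were separate (exact permutation test, two-sided, p = 0.1, which is the smallest p that 3 against 3 libraries can give; adjusted over 3 ratios, 0.3). Nfkb2 to Nfkb1 was 0.387 ± 0.0314 under imatinib and 0.420 ± 0.0275 under vehicle (SD, n = 3 each; exact permutation p = 0.3, adjusted 0.45). Relb to Rela was 0.384 ± 0.0358 and 0.391 ± 0.0191 (SD, n = 3 each; exact permutation p = 0.8, adjusted 0.8), and both of these ratios overlapped. Chosen after the values were seen, and so without a test, Nfkbia to Nfkbie was 2.08, 1.36 and 1.40 under imatinib, against 0.713, 0.883 and 0.852 under vehicle.

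The pattern of each called gene over the 6 libraries was set beside that of every tested gene, by the root mean square difference of log2 CPM after centring each gene on its mean. Nearest to Rel were Suco (0.0309), C2cd5 (0.0317) and B4galt7 (0.0341), and to Nfkbia Tmem71 (0.0594), Gm3788 (0.0680) and Cbx3 (0.0726). Il18, the interleukin 18 gene (0.0322), Parp3 (0.0326) and Phrf1 (0.0334) were nearest to Nfkbie, and Mypopos (0.0944), R74862 (0.106) and Cdc7 (0.116) to Nfkbiz. Levels were low for Mypopos (1.68 to 4.86 CPM) and R74862 (0.594 to 1.73 CPM). Of these genes only Suco, C2cd5, B4galt7, Cbx3 and Phrf1 passed the test, and each was picked as nearest out of all tested genes. Among the members, Rel and Nfkbie were each the nearest to the other (0.127), both lower in each imatinib library. Other pairs were closer, such as Nfkb2 and Rela (0.0786), of which neither was called. The member nearest to Nfkbia was Nfkb1, at 0.277, and the member nearest to Nfkbiz was Rel, at 0.406. This difference grows with the size of a gene's swings, so it cannot tell a different pattern from a larger one.

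The rest of the pathway was read from 6 lists of signalling genes, 62 genes that were all tested, of which 4 rose and 7 fell, beside 6.15% and 8.42% of all tested genes, with a median log2 fold change of -0.12, against 0.01 over all tested genes. These counts were near the background. Of the 11 IκB kinases and upstream kinases 2 fell and 9 did not pass. Chuk, which encodes the kinase IKKα, had 33.2, 33.1 and 36.1 CPM under imatinib, against 48.3, 66.1 and 56.9 CPM under vehicle (log2 fold change -0.74 ± 0.14, SE, edgeR adjusted p = 0.0132). Tbk1, a kinase related to the IκB kinases, had 39.2, 49.7 and 38.4 CPM, against 63.1, 78.5 and 73.4 CPM (-0.76 ± 0.14, adjusted p = 0.0136, and 0.0569 without imatinib 3 or 0.0531 without vehicle 2). Both were lower in each imatinib library, while Ikbkb, the gene of IKKβ, named after its values were seen, had a log2 fold change of -0.33 that did not pass (edgeR adjusted p = 0.0693).

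Of 19 adaptors and ubiquitin ligases 2 fell and 17 did not pass. Irak2, a kinase-like adaptor of interleukin 1 and Toll-like receptors, had 51.4, 60.2 and 62.2 CPM under imatinib, against 100.3, 84.5 and 102 CPM under vehicle (log2 fold change -0.72 ± 0.12, SE, edgeR adjusted p = 0.0106), and Rnf31, the catalytic subunit of the linear ubiquitin ligase, had -0.59 (adjusted p = 0.0429, and 0.0711 to 0.130 without imatinib 1, imatinib 3 or any 1 vehicle library). In the antigen receptor arm, 1 of 4 genes fell. This was Malt1, the paracaspase of that arm, with 48.5, 47.7 and 49.3 CPM under imatinib, against 67.5, 71.5 and 64.0 CPM under vehicle (log2 fold change -0.48 ± 0.10, SE, edgeR adjusted p = 0.0177), and it was lost without imatinib 3 (0.0572), vehicle 1 (0.0559) or vehicle 2 (0.0675).

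Among 14 deubiquitinases and other negative regulators, 2 rose and 2 fell. Irak3, which blocks signalling from interleukin 1 and Toll-like receptors, had 54.3, 30.7 and 49.0 CPM under imatinib, against 16.8, 24.1 and 12.1 CPM under vehicle (log2 fold change 1.34 ± 0.30, SE, edgeR adjusted p = 0.0287). It did not pass without imatinib 1 (0.0785), imatinib 3 (0.0841), vehicle 1 (0.0936) or vehicle 3 (0.0628), nor with no filter on low counts (0.0677), and stood at 0.65 (0.135) scaled to CD3 counts. Tax1bp1, an adaptor of A20, had 226, 177 and 187 CPM, against 139, 137 and 133 CPM (0.53 ± 0.12, adjusted p = 0.0213, but -0.21 scaled to CD3 counts, and 0.0620 to 0.0776 in adjusted p without imatinib 3 or any 1 vehicle library). Tnip2, which encodes a protein that binds A20, had 15.1, 18.0 and 14.1 CPM, against 26.2, 36.2 and 31.7 CPM (-0.996 ± 0.16, adjusted p = 0.00990). N4bp1, an inhibitor of NF-κB signalling, fell by 0.57 on the log2 scale (edgeR adjusted p = 0.0146, and 0.0612 without imatinib 3 or 0.0574 without vehicle 3).

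Of 12 receptors 2 rose and 10 did not pass. Tnfrsf9, which encodes the costimulatory receptor 4-1BB, had 67.0, 44.4 and 39.7 CPM under imatinib, against 33.1, 23.0 and 26.1 CPM under vehicle (log2 fold change 0.88 ± 0.22, SE, edgeR adjusted p = 0.0358). Il18r1, a subunit of the interleukin 18 receptor, had 334, 192 and 302 CPM, against 174, 172 and 131 CPM (0.80 ± 0.21, adjusted p = 0.0441). Both were separate between the groups, and both calls were lost without imatinib 1 (0.0568 and 0.106), imatinib 3 (0.0513 and 0.122), vehicle 1 (0.0597 and 0.0976), vehicle 2 (0.116 and 0.102) or vehicle 3 (0.108 and 0.125). Scaled to CD3 counts, Tnfrsf9 stood at 0.12 (adjusted p = 0.804) and Il18r1 at 0.06 (0.907), and Il18r1 did not pass with library totals (0.0625) or when low counts were left unfiltered (0.0790). Of the γδ and αβ T-cell markers 3 of 6 each were also higher under imatinib, while the αβ markers Cd4, Cd8a and Cd8b1 were lower without passing. The part of these cells in the differences was not tested. The other IκB-like genes Bcl3 and Nfkbid had log2 fold changes of -0.43 and -0.83 that did not pass (edgeR adjusted p = 0.275 and 0.108). Both had their highest vehicle level in vehicle 2 (46.2 CPM for Bcl3, 48.4 CPM for Nfkbid), as did the members Rel, Nfkb2, Nfkbia, Nfkbiz and Tnfaip3.

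Of 37 NF-κB target genes 33 were tested, and 2 rose and 7 fell, beside 6.15% and 8.42% of all tested genes, with a median log2 fold change of -0.24, against 0.01 over all tested genes. Il1a, the interleukin 1α gene, had 5.11, 4.35 and 3.34 CPM under imatinib, against 13.8, 13.4 and 26.2 CPM under vehicle (log2 fold change -2.06 ± 0.31, SE, edgeR adjusted p = 0.00823). Il12b, a subunit of interleukins 12 and 23, had 1.18, 0.792 and 1.34 CPM, against 3.999, 3.997 and 4.047 CPM (-1.86 ± 0.35, adjusted p = 0.0146, lost without vehicle 1, 2 or 3, at 0.0515 to 0.0533). Ccnd1, the cyclin D1 gene, had 38.7, 61.5 and 32.1 CPM, against 160, 108 and 133 CPM (-1.60 ± 0.26, adjusted p = 0.0126, and 0.0535 without imatinib 1). These 3 were lower in each imatinib library than in any vehicle library. Ier3, an early response gene, had 13.1, 11.6 and 7.13 CPM, against 2.69, 5.41 and 3.70 CPM (1.43 ± 0.33, adjusted p = 0.0257, lost without imatinib 1 at 0.0631, vehicle 1 at 0.0865 or vehicle 3 at 0.0815, and 0.75 with adjusted p = 0.166 scaled to CD3 counts).

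The other called targets were named after their values were seen. Bcl2l1, which encodes the survival protein Bcl-xL (log2 fold change -0.81), the chemokine gene Ccl4 (-0.92), Myc (-0.80) and Cflar, which encodes the caspase inhibitor c-FLIP (-0.37), fell, with edgeR adjusted p = 0.00733, 0.0132, 0.0125 and 0.0404. Ltb, the lymphotoxin β gene (0.99, adjusted p = 0.0327), rose, and stood at 0.33 (0.483) scaled to CD3 counts and at 0.97 (0.0873) with no filter on low counts. Bcl2l1 and Ccl4 passed with any 1 library left out, Myc was lost without imatinib 3 (0.0529), and Cflar (0.0613 to 0.129) and Ltb (0.0510 to 0.102) were each lost without imatinib 1, imatinib 3, vehicle 1 or vehicle 2, Cflar also without vehicle 3. Tnf, the gene of tumor necrosis factor, also named after its values were seen, had 37.0, 26.8 and 26.6 CPM under imatinib and 30.6, 74.0 and 29.4 CPM under vehicle, with vehicle 2 alone high and a log2 fold change of -0.57 that did not pass (edgeR adjusted p = 0.381). Several of these genes are also expressed by macrophages and dendritic cells, whose markers moved in both directions. Of 11 macrophage markers 2 were higher and the other 9 lower without passing, with a list median of -0.46. Of 7 dendritic cell markers 1 was higher and 1 lower. The part of those cells was not tested.

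**Figure D5:**
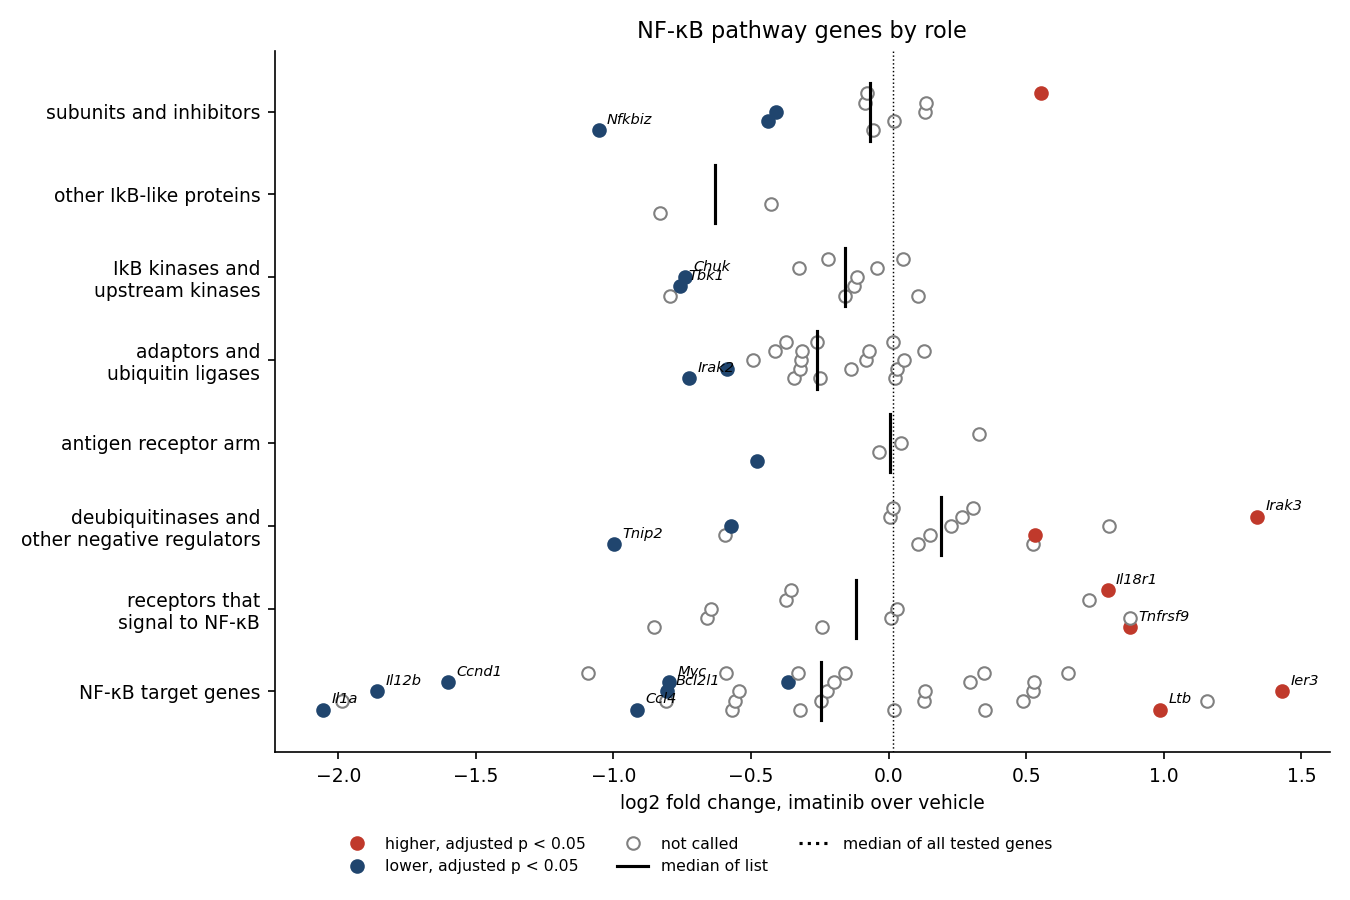
Log2 fold change, imatinib over vehicle, of each tested gene of the NF-κB pathway by role, with genes at adjusted p under 0.05 filled (red higher, blue lower), list medians as bars and the median of all tested genes as a dotted line. Of the 62 signalling genes 4 rose and 7 fell, of the 33 tested targets 2 rose and 7 fell, and the list medians run between -0.63 (other IκB-like genes) and 0.19 (negative regulators).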

How the data were processed

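RNA of sorted tumor cells was extracted with RNeasy columns and made into TruSeq poly(A) libraries. The authors aligned the reads with STAR at default settings (GRCm38, per the labels) and deposited featureCounts counts per gene. For tool versions, annotation and strand, the setting is not given in the sources used here. Of 57332 rows, 3016 without a gene name (0.118% to 0.158% of counts) and 1013 exact repeats were left out, rows of 78 symbols were summed, and 3 columns that match no sample were not read. Each library counted as 1 sample. Counts differed more between any pair than sampling allows (lowest chi-square per gene 37.1), which does not show whether the libraries are separate mice. Genes passing filterByExpr (16621) were tested with edgeR 4.0.16 (TMM, robust quasi-likelihood fit, R 4.3.3, Benjamini-Hochberg adjustment), checked on simulated data. All libraries bear batch 1. Alternatives were other scalings, filters, DESeq2 1.42.0, limma 3.58.1 (voom), a replicate block and leaving out each library. Gene positions and exon lengths are GENCODE M21. Named genes are the 10 members, up to 4 called genes per list by largest change (where none passed, the 2 most abundant), the nearest genes in pattern, the markers, and those said to be chosen later. The members and lists were chosen with earlier results of these data known.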

Additional observations from a re-analysis of the deposited data

How the results depend on the processing

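Rel, Nfkbie and Nfkbiz kept their direction under each of the 15 other settings run. Nfkbia turned under scaling to CD3 counts (-0.18), as did Tax1bp1 (-0.21) and Cbx3 (-0.24), a scaling that moved the median of all tested genes to -0.72. Under it 0 members, 0 signalling genes, 0 targets and 135 genes of all rose, while 28 signalling genes, 19 targets and 4678 genes of all fell. With library totals 0 members rose, and 32.2% of all calls were higher, against 42.2% in the fit reported. With no filter on low counts 2 signalling genes and 1 target rose. DESeq2 called 1634 genes higher and 14 signalling genes lower, Nfkbid among them (adjusted p = 0.0268). The replicate numbers did not pair the samples (correlations of same-numbered deviations -0.21, -0.0567 and -0.0636). With them as a block in the fit, 0 members rose and 0 fell, 1 signalling gene rose and 3 fell, 0 targets rose and 3 fell, and 173 genes of all rose and 437 fell. Leaving out each library in turn gave 0 to 1 members higher and 0 to 2 lower, 0 to 5 signalling genes higher and 3 to 14 lower, 0 to 2 targets higher and 5 to 12 lower, and 182 to 1171 genes of all higher and 503 to 1780 lower. Fewer libraries enter these fits, and the cause of the other shifts was not tested. The κB counts of 5 and 2 members were the same in windows of 250 bases. With 3 libraries a group, the call of each of the 4 members depended on single libraries.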
